A study of Mus musculus with 36 samples.

Results

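The genes described here were 48 members of the mitosis and cytokinesis machinery, out of 55536 genes in the count tables. They were chosen by name from their known roles and not from their measured levels, though with earlier results of these data known. They comprise proliferation markers, the mitotic cyclins with Cdk1 and its phosphatases, mitotic kinases, spindle checkpoint proteins, the chromosomal passenger complex, factors of the anaphase-promoting complex and sister chromatid separation, centromere and kinetochore proteins, kinesins, spindle assembly factors, cytokinesis proteins, a pair of transcription factors and condensin. All 48 passed the filter on low counts and entered the test, beside 16723 tested genes in all.

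RNA was sequenced from a clonal mouse brown pre-adipocyte line, in which Rxra, the gene of the nuclear receptor RXRα, had been knocked out by CRISPR/Cas9. Clones 48 and 66, each an independent Rxra-/- line, were transduced with a retrovirus and selected with hygromycin, so that every library came from cells that carried the knockout and a re-expressed receptor. RxraWT cells carried the wild-type receptor and RxraSA cells a receptor whose insulin-responsive serine was replaced by alanine. Libraries were made on day 0 from confluent cells in medium with insulin and triiodothyronine, on day 2 after induction with dexamethasone, isobutylmethylxanthine and indomethacin, and on day 6 after further culture with insulin and triiodothyronine. With 3 libraries in each of the 12 groups of clone, genotype and day there were 36 libraries, 12 per day. Each clone is a single cell line that was also sequenced in a library pool of its own, so clone and pool cannot be told apart. The series calls the 3 libraries of a group technical replicates and the study's methods call them independent, so p-values measure the spread between these libraries, which may be technical.

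Cells enter mitosis when cyclin-bound Cdk1 is switched on by Cdc25 phosphatases. Spindle kinesins and kinetochores then align the chromosomes, the checkpoint holds the anaphase-promoting complex (APC/C) until alignment is complete, and a contractile ring of actin and myosin, scaffolded by anillin, divides the cell. Transcripts of this machinery rise late in the cell cycle, through CHR and CCAAT promoter elements bound by the MuvB, B-Myb, FoxM1 and NF-Y factors, and are low in resting cells. Pre-adipocyte lines arrested at confluence can re-enter the cycle after hormonal induction, a phase called clonal expansion, before they leave it as adipocytes. The comparison of days asked how the transcripts of the division machinery stood at 3 points of that course, and the comparison of genotypes whether the receptor's serine mattered to them. No library was taken between day 0 and day 2, so a rise and fall within that interval would not be seen.

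Library totals ran from 11351078 to 24349263 assigned read pairs, with a median of 18338726. Rxra itself was present in every library, at 92.6 to 712 CPM (read counts scaled to a common library total after normalisation by the trimmed mean of M-values, TMM), and gene counts do not tell the wild-type form from the alanine form. Adipocyte markers were measured beside the members: the summed level of 10 genes was 144 to 245 CPM on day 0, 3930 to 6760 on day 2 and 6740 to 10900 on day 6, while the brown fat genes Ucp1 and Cidea stayed at or under 0.307 and 1.66 CPM. The summed level of 8 pre-adipocyte markers was 256 to 466 CPM on day 0, 33.9 to 104 on day 2 and 42.4 to 169 on day 6. Of these, Dlk1, Thy1 and Dpp4 did not exceed 0.259 CPM and Pi16 did not exceed 0.981 CPM in any library. The summed level of 6 macrophage markers was 6.6 to 12.7 CPM on day 0, 2.77 to 5.85 on day 2 and 5.44 to 11.6 on day 6; of these Ptprc, Adgre1 and Itgam did not exceed 0.065 CPM, and both tested genes, Lyz2 and Cd68, fell to day 2. The part of these marker changes in the members' changes was not tested, and in bulk RNA fewer dividing cells and less of a transcript per cell cannot be told apart.

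Promoter sequence was examined because most members fell together between day 0 and day 2. RefSeq windows of 300 bases on the build GRCm38.p6 (250 before to 50 after the annotated start) matched 39 of the 48 members by symbol. The search was for the CHR element, written TTTGAA or TTCGAA, and for CCAAT, each on both strands, and neither motif contains the other. A CHR match was found in 29 of the 39 members (74.4%), against 21.7% of the 27025 genes with a window and 19.2% of 32851 windows. CCAAT was in 28 members (71.8%), against 41.1% of genes and 37.4% of windows, and both motifs were in 26 members (66.7%), against 8.61% and 7.52%. Neither was in 8 members (20.5%), against 46.9% of genes and 50.9% of windows. Below are 6 promoters from 100 bases before to 50 after the start, 5′ to 3′ on the gene's strand. Kif23, Ndc80 and Cenpf are among the members with the largest fall, Aurka and Ttk did not pass the test of the fall, and Cdc25b rose again. Capitals mark CHR and CCAAT matches on either strand.
Kif23 (chr9:61946750-61946899, minus strand): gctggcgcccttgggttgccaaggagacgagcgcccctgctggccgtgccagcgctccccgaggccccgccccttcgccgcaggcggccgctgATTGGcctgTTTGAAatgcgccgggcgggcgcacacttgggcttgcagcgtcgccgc
Ndc80 (chr17:71526808-71526957, minus strand): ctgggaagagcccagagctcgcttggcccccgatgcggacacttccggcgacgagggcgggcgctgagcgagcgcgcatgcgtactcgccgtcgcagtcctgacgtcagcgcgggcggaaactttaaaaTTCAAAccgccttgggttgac
Cenpf (chr1:189688037-189688186, minus strand): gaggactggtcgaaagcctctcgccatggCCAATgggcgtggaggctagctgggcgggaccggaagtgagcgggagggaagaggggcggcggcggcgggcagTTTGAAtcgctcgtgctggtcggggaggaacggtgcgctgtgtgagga
Aurka (chr2:172370521-172370670, minus strand): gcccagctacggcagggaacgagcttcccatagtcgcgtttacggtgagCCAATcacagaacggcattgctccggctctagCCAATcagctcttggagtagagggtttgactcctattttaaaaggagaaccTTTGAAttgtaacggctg
Ttk (chr9:83834589-83834738, plus strand): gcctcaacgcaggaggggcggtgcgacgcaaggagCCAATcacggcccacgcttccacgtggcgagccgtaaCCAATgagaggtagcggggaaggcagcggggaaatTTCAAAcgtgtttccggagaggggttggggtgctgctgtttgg
Cdc25b (chr2:131186848-131186997, plus strand): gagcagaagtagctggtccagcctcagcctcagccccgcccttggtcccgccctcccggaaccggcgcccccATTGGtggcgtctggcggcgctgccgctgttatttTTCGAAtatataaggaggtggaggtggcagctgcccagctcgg
Counted from the RefSeq start, the CHR match began at base 3 in Kif23 and Cenpf and at base 8 in Ttk and Cdc25b. It began at base 30 in Ndc80 and base 33 in Aurka. In Kif23 and Aurka the RefSeq start lies before the start of the gene used for counting. Kif23, with the largest fall, and Aurka, which did not pass the test, therefore both hold the pair of motifs. Among members with a CHR match, 25 of 29 fell between day 0 and day 2, with a median log2 fold change of -0.77. Among the 10 members without a match 9 fell, with a median of -0.62. The share of all tested genes that fell was 37.5%, and the share among all genes with a CHR match was not computed. These matches describe letters in a window and are not evidence of binding.

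Between day 0 and day 2 the members fell almost as a body. By edgeR's quasi-likelihood test with Benjamini-Hochberg adjustment over all 16723 genes, at an adjusted p under 0.05, 42 of 48 members were lower on day 2 and none was higher (0 of 48), against 37.5% of all tested genes lower and 35.8% higher. The median fitted log2 fold change of the members was -0.74, and that of all tested genes -0.02. The fit treats the 12 libraries of a day as independent, while same-numbered RxraWT and RxraSA libraries deviated together. Its p-values, here and for the later intervals, may therefore be too small. Within each clone and replicate number the members' median lay between -0.53 and -0.97 (SD 0.152, n = 6), so the fall appeared in every set. The members took a median of 1.02% of a library's counts on day 0, 0.481% on day 2 and 0.600% on day 6 in clone 48, and 0.898%, 0.412% and 0.454% in clone 66. In 11 members the 12 libraries of day 2 all lay below the 12 of day 0, which held for 14.2% of tested genes: Cdc25b, Bub1b, Cdc20, Nuf2, Ndc80, Kif23, Kif2c, Prc1, Anln, Ect2 and Racgap1. Taken within clones, 35 members fell in clone 48 alone (median -0.70) and 40 in clone 66 alone (median -0.84). The members that did not pass the test were Aurka, Ttk, Incenp, Cdca8, Spc25 and Mybl2. With the replicate number as a block, Cdca8 (adjusted p = 0.0123) and Mybl2 (adjusted p = 0.0097) also passed.

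**Figure D1:**
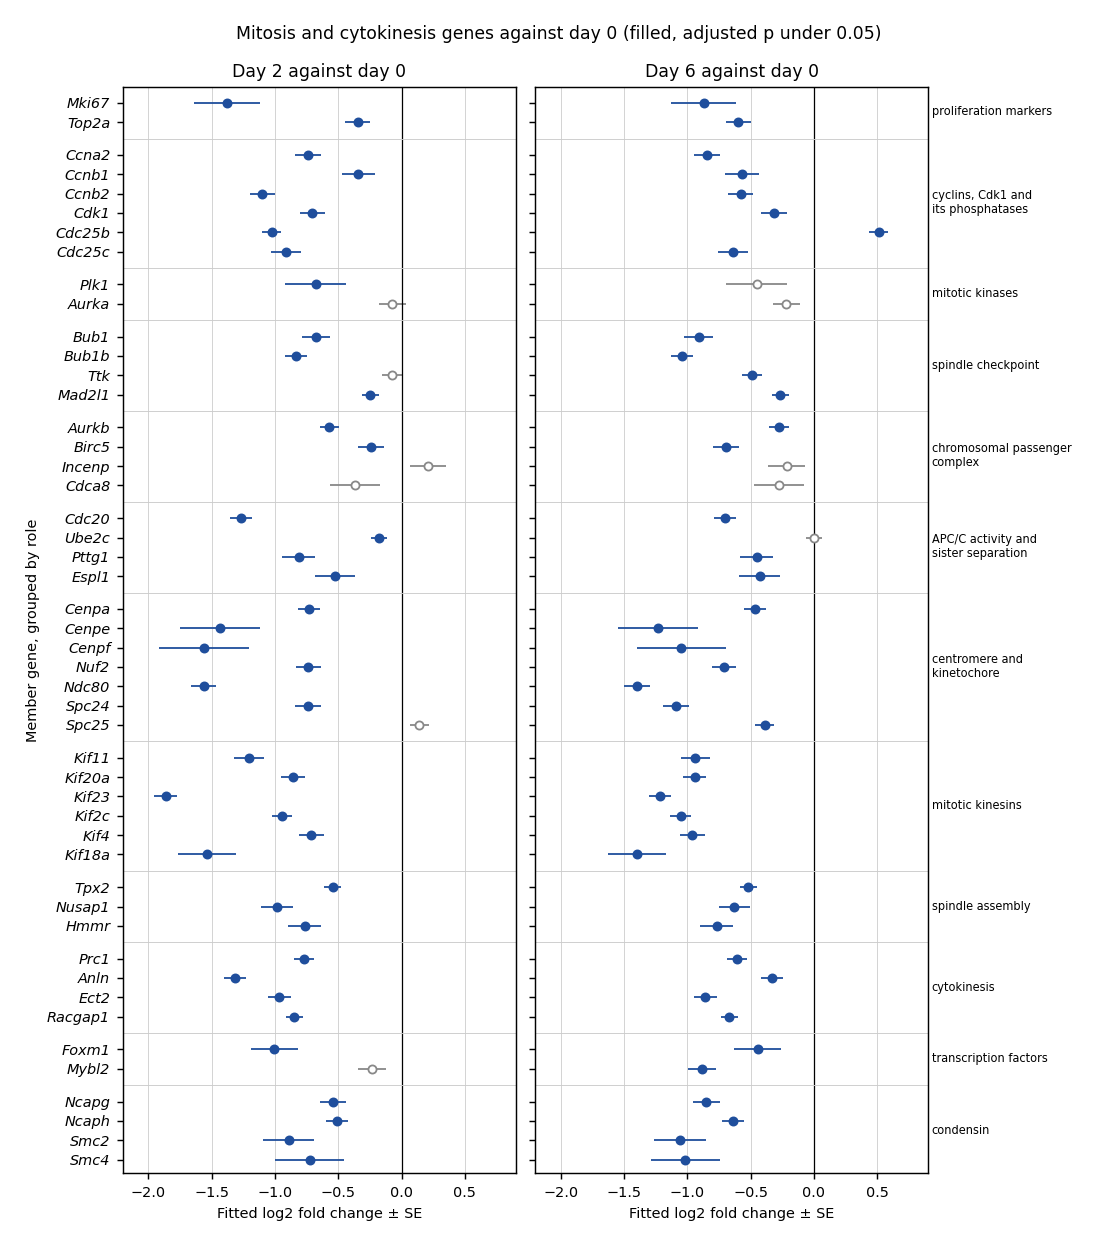
Fitted log2 fold change ± SE of each member on day 2 (left) and day 6 (right) against day 0, grouped by role, from edgeR over 36 libraries; filled points have an adjusted p under 0.05. On day 2 the points lie left of 0 for every member other than Incenp and Spc25, and on day 6 Cdc25b alone is a filled point to the right of 0.

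Between day 2 and day 6 there was no common direction: 15 members rose and 10 fell, against 31.9% of all tested genes higher and 30.1% lower, and 23 did not pass. The median of the members was 0.09, and that of all genes 0.01. Scaling by library size alone, which moved the median of all genes to 0.08, changed the split to 16 higher and 6 lower. The count of lower members was also 6 without replicate 2 of clone 66, and within clones the split was 7 higher and 5 lower in clone 48, and 11 and 7 in clone 66. With the replicate number as a block 18 rose and 13 fell, the added ones being Mki67 (0.67, adjusted p = 0.0220), Ndc80 (0.17, adjusted p = 0.0333) and Prc1 (0.16, adjusted p = 0.0103) upward, and Ccnb1 (-0.26, adjusted p = 0.0114), Bub1 (-0.22, adjusted p = 0.0147) and Ncaph (-0.13, adjusted p = 0.0108) downward. The block takes the offset of a replicate number as equal on all days, which did not hold for Mki67. In clone 48 its log2 difference of replicate 1 from the others was 0.28, 2.36 and -0.32 on days 0, 2 and 6. The largest changes belonged to Cdc25b, Anln and Mybl2, described with their groups, and the smallest to Hmmr (-0.0030 ± 0.132), Mad2l1 (-0.017 ± 0.0661) and Nuf2 (0.024 ± 0.095). Against day 0, day 6 still had 42 members lower and 1 higher, against 35.4% and 32.9% of all genes, with a median of -0.65 (all genes -0.03). Libraries of day 6 and day 0 did not overlap for 17 lower members, against 11.0% of genes. The members without a call from day 0 to day 6 were Plk1, Aurka, Incenp, Cdca8 and Ube2c, and with the replicate block Plk1 (-0.48, adjusted p = 0.00193), Aurka (-0.20, adjusted p = 0.0167) and Incenp (-0.23, adjusted p = 0.0248) passed. The largest falls over that span were those of Kif18a (-1.40 ± 0.227), Ndc80 (-1.40 ± 0.1) and Cenpe (-1.23 ± 0.314). Both intervals rest on the same day 2 libraries, and both comparisons with day 0 on the same day 0 libraries.

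The proliferation markers Mki67 and Top2a both fell by day 2. Mki67 (chr7:135689784-135716361 on GRCm38), which encodes the Ki-67 antigen of dividing nuclei, lay at 359 to 598 CPM on day 0 with a median of 465, at 52.1 to 367 with a median of 145 on day 2, and at 95.2 to 396 with a median of 284 on day 6. Its fitted log2 fold change was -1.38 ± 0.261 (SE) from day 0 to day 2 (edgeR adjusted p = 1.63e-05), so 38.4% of the earlier level remained. The day 2 range of Mki67 met the day 0 range through 1 library, RxraSA replicate 1 of clone 48, at 367 CPM. Top2a, the topoisomerase that untangles sister DNA, ranged over 1090 to 1664 CPM (median 1402), then 758 to 1556 (median 1057), then 693 to 1161 (median 819). It fell in each interval, by 0.35 ± 0.101 on the log2 scale to day 2 (adjusted p = 0.00255) and by 0.25 ± 0.101 to day 6 (adjusted p = 0.0304). The call for Top2a to day 2 did not hold in clone 48 alone (-0.25).

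All 6 genes of the Cdk1 group fell by day 2, and 4 of them then rose. Cdk1, the kinase that drives entry into mitosis, had a range of 340 to 655 CPM (median 476) on day 0, 201 to 395 (median 303) on day 2 and 261 to 536 (median 391) on day 6. Cdk1 fell by 0.71 ± 0.101 on the log2 scale (adjusted p = 1.31e-07) and then rose by 0.39 ± 0.1 (adjusted p = 0.00101). Its partner Ccna2, cyclin A2 of S phase and early mitosis, went from 190 to 296 CPM (median 245) to 110 to 193 (median 153) and 103 to 172 (median 128). Ccna2 did not rise again: its change from day 2 to day 6 was -0.10 ± 0.1, after -0.74 ± 0.101. Ccnb1, cyclin B1, spanned 132 to 277 CPM (median 201), 97.7 to 230 (median 160) and 77.8 to 213 (median 129). The fall of Ccnb1 to day 2 was small, -0.34 ± 0.132 (adjusted p = 0.0207), and it did not pass in clone 48 alone, without replicate 3 of clone 66 (-0.27, adjusted p = 0.0884) or without a clone term. Ccnb2, cyclin B2, changed more, by -1.10 ± 0.0975 and then 0.52 ± 0.0968.

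Cdc25b was the member that passed the test as higher on day 6 than on day 0. It encodes a phosphatase that removes the inhibitory phosphates of Cdk1, and lies at chr2:131186949-131198497. The 12 libraries of day 0 held 49.0 to 65.9 CPM (median 57.9), those of day 2 held 20.9 to 38.6 (median 28.9), and those of day 6 held 72.7 to 108 (median 78.7). The libraries of the 3 days did not overlap at all, with day 2 lowest and day 6 highest. The log2 fold change was -1.03 ± 0.0754 to day 2 (adjusted p = 2.56e-14), then 1.54 ± 0.0761 (adjusted p = 1.57e-18), which left 0.51 ± 0.0742 against day 0 (adjusted p = 2.22e-07). Day 6 means in clone 48 were 91.5 ± 15.2 CPM in RxraWT and 87.0 ± 11.5 in RxraSA, and in clone 66 they were 73.6 ± 0.933 and 79.8 ± 2.97 (SD, n = 3 each). Cdc25c, a second phosphatase of this family, fell by 0.92 ± 0.119 and stayed lower on day 6 (-0.64 ± 0.118 against day 0), though 12.7% of its exonic bases are shared with Gm3550 and counting was not by strand.

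The mitotic kinases Plk1 and Aurka gave 1 call to day 2 between them and none on day 6. Plk1, the Polo-like kinase of spindle and cytokinesis control, was at 15.2 to 61.6 CPM (median 30.7), then 12.1 to 35.2 (median 18.1), then 11.8 to 43.4 (median 23.5). The ranges of Plk1 overlapped on all days, and its fall of 0.68 ± 0.241 to day 2 (adjusted p = 0.0125) was lost in clone 48 alone (-0.47, adjusted p = 0.239), without replicate 2 of clone 66 (-0.63, adjusted p = 0.0535) and without the day 2 replicate 1 libraries (-0.45, adjusted p = 0.137). Aurka, which matures spindle poles, stayed within 49.6 to 105 CPM (median 79.8), 52.3 to 91.4 (median 70.3) and 52.8 to 82.0 (median 64.6). For Aurka the changes were -0.07 ± 0.106 (adjusted p = 0.536) and -0.14 ± 0.106 (adjusted p = 0.242), so 95.0% of the day 0 level remained on day 2.

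**Figure D2:**
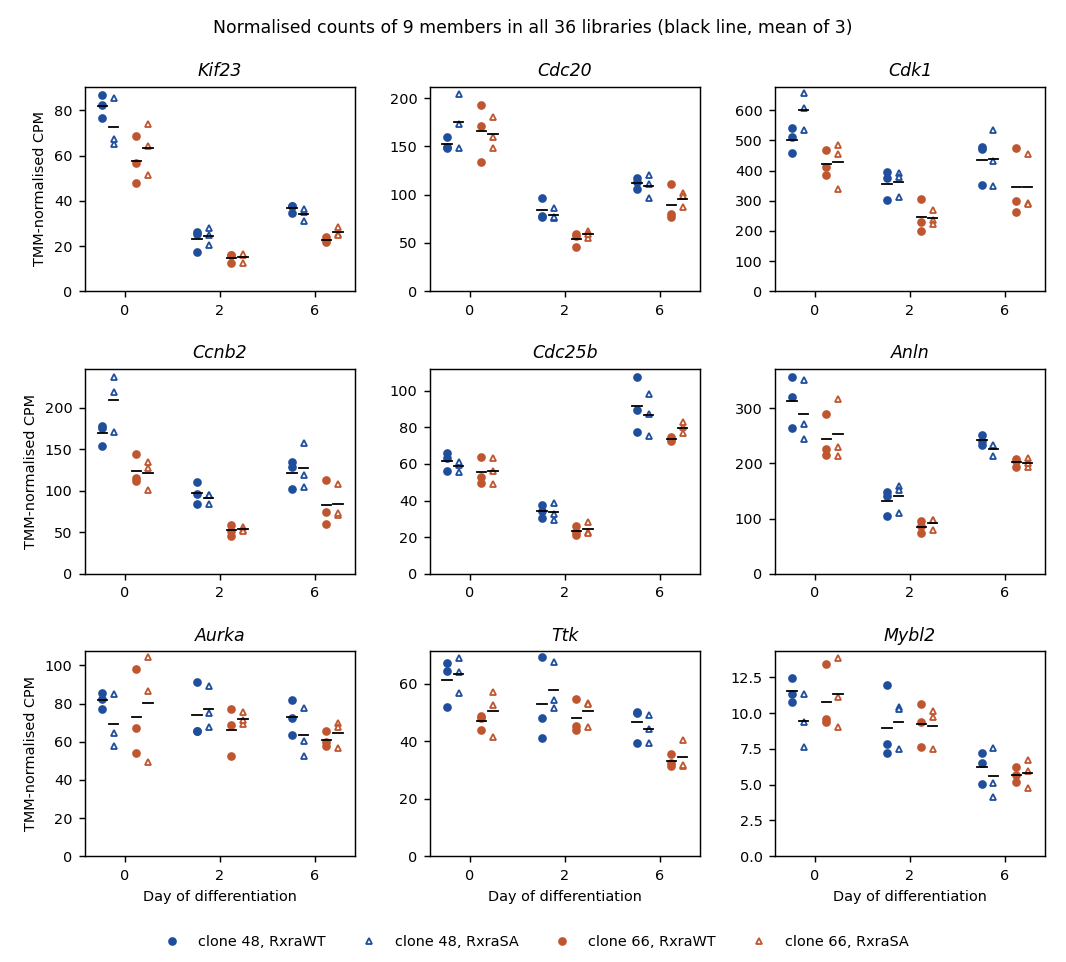
TMM-normalised CPM of 9 members in all 36 libraries by day; blue is clone 48, orange clone 66, filled circles RxraWT, open triangles RxraSA, and black lines the mean of 3 libraries. Kif23, Cdc20 and Anln drop on day 2 in all 4 lines, Cdc25b is highest on day 6, and Aurka overlaps across the 3 days.

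Of the 4 spindle checkpoint genes, 3 were lower on day 2 and all 4 on day 6. Bub1, a kinase at unattached kinetochores, had 67.1 to 100 CPM (median 88.8) on day 0, 38.6 to 75.9 (median 48.5) on day 2 and 31.4 to 60.5 (median 43.9) on day 6. That was a log2 fold change of -0.68 ± 0.112 to day 2 (adjusted p = 1.94e-06). Bub1b, the BubR1 gene of the same checkpoint, fell by 0.83 ± 0.0869 and its libraries did not overlap. Mad2l1, which encodes the Mad2 inhibitor of the APC/C, changed little, from 73.7 to 113 CPM (median 87.9) to 62.8 to 90.8 (median 78.6) and 67.8 to 87.4 (median 75.1). Its fall of 0.25 ± 0.066 (adjusted p = 0.00115) lost its call after correction for transcript GC content (-0.07, adjusted p = 0.477) and in clone 48 alone (-0.19). Ttk, the Mps1 kinase, passed the test only in the later interval, with -0.08 ± 0.08 to day 2 (adjusted p = 0.399), then -0.41 ± 0.0804 to day 6 (adjusted p = 3.69e-05). By group, Ttk means on days 0, 2 and 6 were 61.2 ± 8.16, 52.8 ± 14.7 and 46.5 ± 6.20 CPM in RxraWT cells of clone 48, and 46.9 ± 2.54, 48.0 ± 5.69 and 33.2 ± 2.08 in those of clone 66 (SD, n = 3).

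The chromosomal passenger complex, which corrects attachment errors and then marks the midzone, gave mixed counts, with 2 of 4 genes lower on day 2. Aurkb, its kinase, went from 75.8 to 102 CPM (median 91.6) to 48.3 to 76.9 (median 60.0) and back to 55.0 to 93.3 (median 74.6), a change of -0.57 ± 0.0784 (adjusted p = 6.63e-08) followed by 0.30 ± 0.0783 (adjusted p = 0.00137). Birc5, the survivin gene, had 51.5 to 119 CPM (median 79.5), 56.9 to 79.8 (median 67.0) and 40.6 to 60.0 (median 48.9). Birc5 fell mainly in the later interval, by 0.45 ± 0.105 (adjusted p = 0.000335), while its earlier fall of 0.24 ± 0.104 (adjusted p = 0.0354) was lost in 6 of the alternative settings, among them without replicate 3 of clone 48, replicate 2 of clone 66 or replicate 3 of clone 66 (-0.23, -0.24 and -0.11). Incenp, the scaffold of the complex, had a fitted difference of 0.21 ± 0.143 to day 2 (adjusted p = 0.191) and fell by 0.42 ± 0.143 after it (adjusted p = 0.0106). Cdca8, the borealin gene, had 19.2 to 67.9 CPM on day 0 and 18.9 to 53.5 on day 2, with no call in any interval. With the replicate block its fall to day 2 passed (-0.32, adjusted p = 0.0123).

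The 4 genes of APC/C activity and sister separation all fell to day 2, and 3 of them rose afterwards. Cdc20, the activator that starts anaphase, lies at chr4:118432901-118437352. Its libraries held 133 to 204 CPM (median 160) on day 0, 46.3 to 97.0 (median 68.7) on day 2 and 77.2 to 121 (median 104) on day 6, without overlap between day 0 and either later day. The log2 fold change of Cdc20 was -1.27 ± 0.0867 (adjusted p = 3.68e-15) and then 0.57 ± 0.0856 (adjusted p = 5.5e-07). Ube2c, the E2 enzyme of the APC/C, was nearly level at 68.1 to 113 CPM (median 84.8), 63.9 to 94.8 (median 73.7) and 54.3 to 118 (median 89.0). Its fall of 0.18 ± 0.0633 (adjusted p = 0.0125) was lost in 8 alternative settings, including without replicate 1 of clone 48 (-0.15), and against day 0 its change on day 6 was 0.00096 ± 0.0634 (adjusted p = 0.99). Tnnc2 shares 22.8% of the exonic bases of Ube2c. Pttg1, the securin gene, had 58.0 to 111 CPM (median 75.9), 35.3 to 61.2 (median 46.1) and 39.9 to 105 (median 53.4). Espl1, the separase that securin holds back, had 25.5 to 67.1 (median 36.7), 20.3 to 44.2 (median 24.4) and 17.9 to 46.7 (median 29.0). These amounted to -0.81 ± 0.129 for Pttg1 (adjusted p = 1.01e-06) and -0.52 ± 0.16 for Espl1 (adjusted p = 0.00391), and Espl1 lost its call without the day 2 replicate 1 libraries (-0.33) and in clone 48 alone (-0.26).

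Of the 7 centromere and kinetochore genes, 6 fell to day 2, among them 3 of the 4 subunits of the Ndc80 complex, which grips microtubule ends. Ndc80 (chr17:71496100-71526857) held 96.7 to 138 CPM (median 120) on day 0, 31.1 to 58.5 (median 37.3) on day 2 and 32.0 to 60.6 (median 44.4) on day 6. It fell by 1.56 ± 0.101 on the log2 scale (adjusted p = 7.36e-16), to 33.9% of the earlier level, and stayed low. Of its partners, Nuf2 fell by 0.74 ± 0.0953 and Spc24 by 0.74 ± 0.103, while Spc25 had a fitted difference of 0.14 ± 0.0761 (adjusted p = 0.0994). On day 2, Spc25 thus lay at 72.3 to 143 CPM with a median of 99.5, beside 88.9 on day 0, and its fall of 0.53 ± 0.0764 came only after day 2 (adjusted p = 2.77e-07). Whether the subunit genes differed from each other was not tested. Cenpa, the centromeric histone, went from 69.0 to 122 CPM (median 93.0) to 43.1 to 72.5 (median 58.3) and 53.0 to 77.1 (median 69.3), a fall of 0.73 ± 0.0868 (adjusted p = 2.79e-09). The large kinetochore proteins Cenpe and Cenpf fell by 1.43 ± 0.316 (adjusted p = 0.000138) and 1.56 ± 0.357 (adjusted p = 0.000213), with standard errors over 3 times those of Ndc80.

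All 6 kinesins fell, and Kif23 had the largest change of all 48 members. Kif23 (chr9:61915905-61946774) encodes the motor of centralspindlin, which bundles the midzone and calls in the cleavage machinery. The 12 libraries held 47.9 to 86.8 CPM (median 68.0) on day 0, 12.3 to 28.2 (median 17.0) on day 2 and 21.8 to 37.8 (median 29.8) on day 6, so neither later day overlapped day 0. By group on day 0, Kif23 was 82.0 ± 5.15 CPM in RxraWT and 72.7 ± 11.2 in RxraSA of clone 48, and 57.7 ± 10.4 and 63.3 ± 11.2 in clone 66 (SD, n = 3). On day 2 the same groups gave 22.9 ± 4.81, 24.4 ± 3.96, 14.9 ± 1.96 and 15.0 ± 2.33. The log2 fold change was -1.86 ± 0.0877 (adjusted p = 1.28e-19), which left 27.5% of the level, and a rise of 0.65 ± 0.086 followed (adjusted p = 5.38e-08). Kif11, the Eg5 motor that pushes spindle poles apart, had 288 to 565 CPM (median 419), 123 to 292 (median 166) and 139 to 331 (median 208). It fell by 1.20 ± 0.118 (adjusted p = 4.02e-11). Kif18a, Kif2c, Kif20a and Kif4 fell by 1.54 ± 0.228, 0.95 ± 0.0821, 0.86 ± 0.0928 and 0.71 ± 0.101 in turn, and their changes between day 2 and day 6 lay between -0.25 and 0.14.

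All 4 cytokinesis genes fell to day 2, and Anln and Racgap1 then rose. Anln (chr9:22332012-22389188), the anillin scaffold of the contractile ring, had 214 to 357 CPM (median 267) on day 0, 74.5 to 159 (median 101) on day 2 and 193 to 251 (median 211) on day 6. All libraries of day 2 lay below those of the other days. Anln fell by 1.32 ± 0.088 (adjusted p = 2.08e-15) and rose by 0.98 ± 0.0874 (adjusted p = 7.1e-12), so that day 6 was 79.3% of day 0. Prc1, which bundles midzone microtubules, moved from 168 to 238 CPM (median 216) to 98.2 to 158 (median 126) and 104 to 166 (median 136). Ect2, the exchange factor that activates RhoA at the cleavage site, moved from 87.2 to 161 (median 113) to 50.01 to 67.0 (median 60.4) and 51.7 to 75.4 (median 64.1). Racgap1, the partner of Kif23 in centralspindlin, moved from 180 to 235 (median 217) to 96.7 to 145 (median 117) and 109 to 152 (median 136). Prc1, Ect2 and Racgap1 fell by 0.77 ± 0.0788, 0.96 ± 0.0912 and 0.85 ± 0.0679, and kept 65.5%, 55.2% and 63.0% of their day 0 level on day 6. Among the spindle assembly factors Tpx2, Nusap1 and Hmmr, the falls were 0.54 ± 0.0669, 0.98 ± 0.124 and 0.77 ± 0.132, and Nusap1 rose afterwards by 0.36 ± 0.123 (adjusted p = 0.0123).

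Of the transcription factors, Foxm1 passed the test of a fall to day 2 and Mybl2 did not, a difference that was not itself tested. Foxm1, the forkhead activator of late cell cycle genes, had 28.5 to 71.7 CPM (median 47.5), 14.0 to 42.8 (median 19.8) and 20.5 to 56.7 (median 33.2). It fell by 1.00 ± 0.186 (adjusted p = 1.22e-05) and rose by 0.56 ± 0.185 (adjusted p = 0.00904), and the rise was lost in clone 48 alone (0.46) and without the day 2 replicate 1 libraries (0.40). Mybl2, the B-Myb gene, had 7.62 to 13.8 CPM (median 10.9), 7.18 to 11.96 (median 9.55) and 4.11 to 7.55 (median 5.79). Its change was -0.23 ± 0.11 to day 2 (adjusted p = 0.0573) and -0.65 ± 0.112 from day 2 to day 6 (adjusted p = 5.28e-06). Levels on day 6 did not overlap those of day 0 for Mybl2.

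Condensin genes, which compact mitotic chromosomes, were lower on both later days. Ncapg had 124 to 161 CPM (median 136), 59.3 to 133 (median 91.4) and 61.2 to 101 (median 77.8), a fall of 0.54 ± 0.104 to day 2 (adjusted p = 2.3e-05) that GC correction reduced to -0.12 (adjusted p = 0.0972). Smc2 ranged over 284 to 392 (median 345), 55.6 to 306 (median 162) and 78.3 to 253 (median 156), and Smc4 over 389 to 653 (median 517), 54.6 to 555 (median 266) and 117 to 403 (median 250). The falls of Smc2 and Smc4 were 0.89 ± 0.203 (adjusted p = 0.000207) and 0.73 ± 0.27 (adjusted p = 0.0164). Smc4 lost its call without replicate 2 of clone 48 (-0.57), replicate 3 of clone 48 (-0.53) or replicate 2 of clone 66 (-0.71), and in clone 66 alone (-0.43).

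Per kilobase of exon, members differed by more than an order of size. On day 0 the median length-scaled level (RPKM) of a member ran from 2.36 in Mybl2 to 156 in Top2a, with a median of 27.1 over the members. Smc4, Ccnb2, Cdk1 and Cdc20 followed Top2a at 99.3, 97.4, 96.5 and 85.6 RPKM, and their order does not hold beyond the overlap of their libraries. The median over members was 14.7 RPKM on day 2 and 16.3 on day 6. Exons were shared with another gene in 15 members, over 10% of bases in 7 of them, and pairs falling in several genes were not counted.

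On day 2, replicate 1 stood apart for a subset of members. In clone 48, Smc4 held 516 and 532 CPM in the RxraWT and RxraSA libraries of replicate 1, 86.1 and 133 in those of replicate 2, and 54.6 and 133 in those of replicate 3. In clone 66, the same gene held 555 and 553, then 268 and 234, then 264 and 397. Replicate 1 was therefore high for Smc4 in both genotypes and both clones. The difference of replicate 1 from the mean of the other 2 in clone 48 was over 1 on the log2 scale in 6 members: Smc2 (1.75), Kif18a (2.03), Mki67 (2.36), Smc4 (2.46), Cenpe (2.94) and Cenpf (3.05). In clone 66 these ranged from 0.62 to 1.01. The median of all members was 0.17 in clone 48, and 295 of 10469 genes (2.82%) exceeded 1. Across the 48 members the difference fell with the GC content of the longest transcript (Spearman's rho -0.78 in clone 48 and -0.68 in clone 66), as it did across all genes (-0.63 and -0.45), and members share their libraries. Other offsets of replicate 1 did not follow this direction: on day 6 in clone 66 it was lower for Mki67 (-1.15), Cenpe (-1.41) and Cenpf (-1.57), and on day 0 in clone 66 it was lower for Plk1 (-1.27) and Cdca8 (-1.45). The part of GC content in the difference was not tested.

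**Figure D3:**
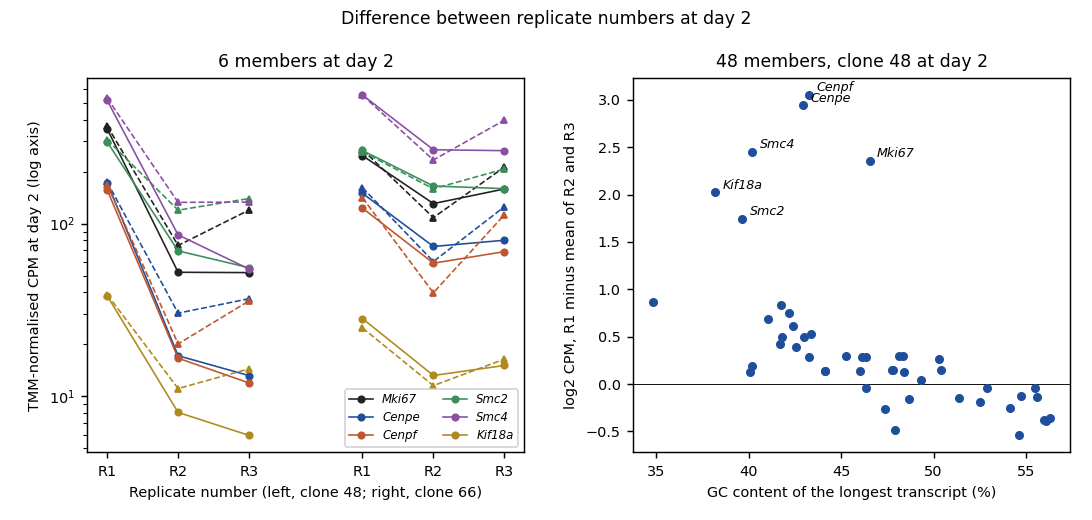
Left, TMM-normalised CPM (log axis) on day 2 of 6 members by replicate number, solid lines with circles for RxraWT and dashed lines with triangles for RxraSA; right, the log2 difference of replicate 1 from the mean of the others in clone 48 on day 2 against transcript GC content (%), 1 point per member. Replicate 1 is highest in every line of the left panel, and the 6 named members lie above 1 in the right panel.

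Without the day 2 libraries of replicate 1, an alternative chosen after seeing the data, the falls of these members to day 2 were larger. These members were named for their high replicate 1 values, which fixes that direction, so the values are a description: -2.00 for Mki67, -2.23 for Cenpe, -2.38 for Cenpf, -2.12 for Kif18a, -1.30 for Smc2 and -1.39 for Smc4. From day 2 to day 6 the difference of Mki67 was then 1.17, in place of 0.51 ± 0.258 (adjusted p = 0.0856) with all libraries, and those of Cenpe, Cenpf and Kif18a were 1.04, 1.38 and 0.76. In all, 38 members were lower on day 2, and 17 rose and 6 fell afterwards. The shares of all genes called in this fit are not given, so these counts show only how the calls moved.

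Between the genotypes no member passed the test. On each of the 3 days 0 of 48 members passed the adjusted threshold in RxraSA against RxraWT by edgeR's quasi-likelihood test, as did 0% of all tested genes, and 0 members had an unadjusted p under 0.05. Over all genes the number with an unadjusted p under 0.05 was 139, 162 and 125. DESeq2 and every other alternative run also gave 0 members. These included a fit with the replicate number as a block within each day. The main fit leaves out the pairing of same-numbered RxraWT and RxraSA libraries, which deviated together. Its p-values for genotype, and for the change by genotype, may therefore be too large. The members' fitted log2 differences lay between -0.16 and 0.21 on day 0, -0.11 and 0.24 on day 2, and -0.20 and 0.07 on day 6, with medians of 0.08, 0.03 and -0.02. Standard errors ran from 0.0895 to 0.492 on day 0, the widest for Cenpf, so for some members a difference of this size could not be told from 0. The smallest p belonged to Pttg1 on day 0 (0.21 ± 0.182, unadjusted p = 0.248), Ttk on day 2 (0.10 ± 0.113, unadjusted p = 0.388) and Cenpa on day 6 (0.07 ± 0.122, unadjusted p = 0.562). Nor did the change between days differ by genotype: 0 members and 0% of genes passed in each of the 3 intervals (144, 153 and 128 genes at an unadjusted p under 0.05 for day 2 against day 0, day 6 against day 2 and day 6 against day 0). In those 3 intervals the smallest unadjusted p was 0.348 for Ube2c (-0.12 ± 0.127), 0.386 for Anln (-0.15 ± 0.173) and 0.368 for Kif4 (-0.18 ± 0.201).

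Between clones, calls were more frequent than between genotypes and mostly toward lower levels in clone 66. On day 0, 7 members were lower and 2 higher in clone 66, against 11.1% and 12.6% of all genes. On day 2 the counts were 23 lower and 1 higher, against 15.5% and 14.5%, and on day 6 they were 10 lower and 2 higher, against 12.8% and 13.4%. With lower and higher calls counted jointly, the members' share was above that of all genes on day 2 only. The share of lower calls alone was above that of all genes on each day, and least so on day 0. Whether these shares differed was not tested. The members' median log2 difference was -0.12, -0.33 and -0.25 on the 3 days. This fit treats the 6 libraries of a clone and day as independent, while same-numbered RxraWT and RxraSA libraries deviated together, so its p-values may be too small. Cyclin gene Ccnb2 on day 2 had 84.2 to 111 CPM (median 94.6) in clone 48 and 46.0 to 59.2 (median 52.4) in clone 66, without overlap (-0.83 ± 0.141, adjusted p = 3.35e-05). The kinetochore gene Spc24 on day 2 had 28.8 to 38.7 CPM in clone 48 and 16.2 to 22.0 in clone 66 (-0.81 ± 0.137, adjusted p = 3.17e-05), and Kif23 had 17.4 to 28.2 and 12.3 to 16.6 (-0.66 ± 0.118, adjusted p = 6.22e-05). On day 0 the smallest adjusted p belonged to Ccnb2 (-0.62 ± 0.139, adjusted p = 0.00126), Kif20a (higher in clone 66, values below) and Kif4 (-0.66 ± 0.151, adjusted p = 0.00157). On day 6 it belonged to Ube2c (-0.53 ± 0.0905, adjusted p = 5.14e-05), Spc25 (-0.59 ± 0.115, adjusted p = 0.000228) and Kif4 (-0.70 ± 0.152, adjusted p = 0.000795). Kif20a (0.59 ± 0.134, adjusted p = 0.00153) and Cdc25c (0.69 ± 0.173, adjusted p = 0.00361) were the members higher in clone 66 on day 0. Both share exonic bases with a neighbour, Kif20a 29.3% with Cdc23. They are also the 2 members on chromosome 18, so they may not be separate results, and the part of their position was not tested.

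These clone counts moved when all libraries of a replicate number in a clone, of both genotypes and all days, were left out together. The shares of all genes called in these fits are not given, so the counts show only how the calls depended on the libraries. On day 0 the lower members numbered 13 without replicate 1 of clone 66. On day 2 the higher members numbered 8 without replicate 1 of clone 48 and 0 without replicate 2 of clone 48, replicate 3 of clone 48 or replicate 1 of clone 66. On day 6 the lower members numbered 18 without replicate 3 of clone 48, 21 without replicate 1 of clone 66 and 5 without replicate 3 of clone 66, and the higher members 1 without replicate 2 or 3 of clone 48 and 0 without replicate 1 of clone 66. Without the day 2 replicate 1 libraries, 6 members were higher in clone 66 on day 2, namely Cenpf, Smc4, Cenpe, Smc2, Ncapg and Mki67, and 21 were lower. In each of these named members, replicate 1 on day 2 lay further above the others in clone 48 than in clone 66. Leaving it out therefore moves them toward higher levels in clone 66 by construction, and these calls are a description. The same holds for these members when replicate 1 of clone 48 alone is left out.

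**Figure D4:**
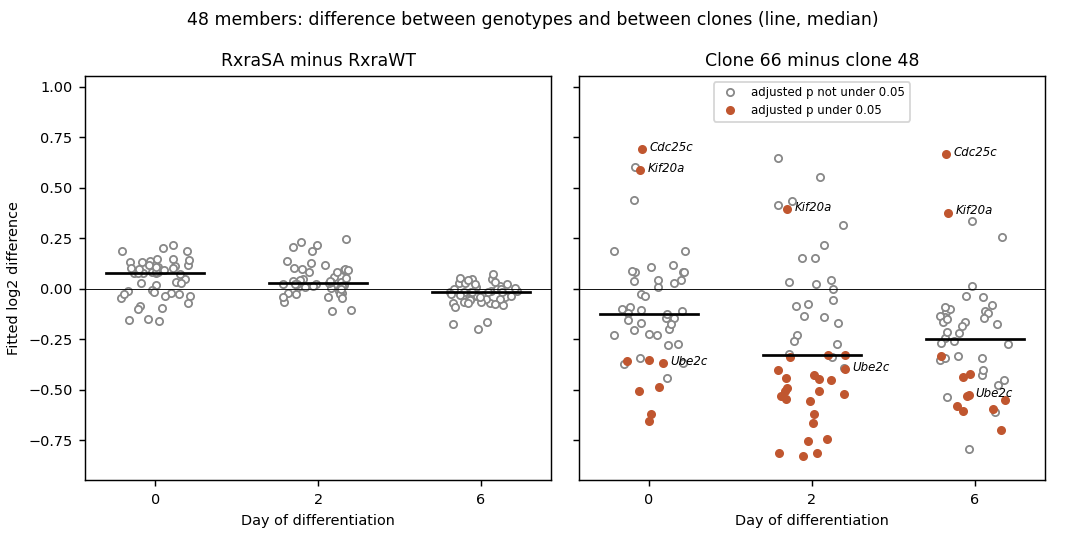
Fitted log2 difference of each of the 48 members on days 0, 2 and 6, RxraSA minus RxraWT (left) and clone 66 minus clone 48 (right); filled points have an adjusted p under 0.05 and black lines are medians. No point is filled on the left, and on the right the filled points lie mainly below 0, with medians of -0.12, -0.33 and -0.25.

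The size of the fall to day 2 differed between clones for 2 of 48 members, no larger a share than the 6.84% of all genes. The change differed for 0 members in the other intervals, against 6.18% (day 6 against day 2) and 3.85% (day 6 against day 0). In Cdc20 the log2 fold change to day 2 was -1.02 in clone 48 and -1.51 in clone 66, each fitted alone, and the difference in the fit of all 12 groups was -0.54 ± 0.147 (adjusted p = 0.0200). For Racgap1 (chr15:99620496-99651656) the values in the separate fits of each clone were -0.66 and -1.03, and the difference in the fit of all 12 groups was -0.41 ± 0.118 (adjusted p = 0.0295). On day 2, Racgap1 held 124 to 145 CPM in clone 48 and 96.7 to 111 in clone 66, and on day 0 the clones overlapped, at 180 to 235 and 193 to 234. With the replicate number as a block, 6 members passed from day 0 to day 2, the added ones being Ccna2 (adjusted p = 0.00974), Cdc25b (0.0131), Aurkb (0.0317) and Kif2c (0.0288), and 4 passed from day 2 to day 6. Neither Cdc20 nor Racgap1 kept its call in every alternative: the count was 0 without replicate 2 of clone 48, replicate 3 of clone 48 or replicate 3 of clone 66, 1 without replicate 2 of clone 66, and 10 without replicate 1 of clone 48. From day 2 to day 6 the count was 7 without replicate 1 of clone 48.

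Other cell cycle lists were measured beside the members. Of all tested genes 37.5% were lower and 35.8% higher on day 2, which is the background for each list. Of 58 further mitosis genes, 43 were lower and 7 higher on day 2, with a median of -0.67, and the largest changes were those of Pimreg (-1.91 ± 0.136), Psrc1 (-1.64 ± 0.136) and Kif20b (-1.52 ± 0.332). Of the 40 DNA replication genes, 14 were higher and 10 lower on day 2 with a median of -0.05, so no larger share was called than among all genes, and from day 2 to day 6 1 was higher and 34 lower with a median of -0.45, against 31.9% and 30.1% of all genes. Orc6, of the origin recognition complex, had median levels of 134, 240 and 114 CPM on the 3 days. To day 2, Orc6 changed by 0.75 ± 0.121 and Rfc1, the large clamp loader subunit, by 0.71 ± 0.0626. Over the same interval the members' median was -0.74, and the difference between lists was not tested.

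Core subunits of the APC/C, the complex that Cdc20 and Ube2c serve, numbered 15: 6 were higher, a share near that of all genes (35.8%), and 2 lower on day 2, with a median of 0.07, and Anapc16 (1.11 ± 0.0973), Anapc7 (0.51 ± 0.16) and Anapc4 (-0.49 ± 0.0803) changed most. Among 19 DREAM, MuvB and E2F genes, which hold or release late cell cycle transcription, 10 were higher and 5 lower on day 2, against the same background. E2f2 changed by 1.15 ± 0.0991, E2f7 by -1.23 ± 0.151 and Rb1, the retinoblastoma gene, by 1.03 ± 0.0725, with Rb1 medians of 32.3, 66.6 and 123 CPM on the 3 days. Of 14 tested G1 cyclins and CDK inhibitors, 7 were higher and 6 lower on day 2, against the same background. Cdkn1a, the p21 inhibitor of cyclin-dependent kinases, changed by 3.15 ± 0.358 with medians of 10.2, 113 and 110 CPM, Ccnd1, cyclin D1, by -2.18 ± 0.318 and Ccnd2, cyclin D2, by 1.91 ± 0.282. All of these named genes had edgeR adjusted p under 0.05 to day 2.

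**Figure D5:**
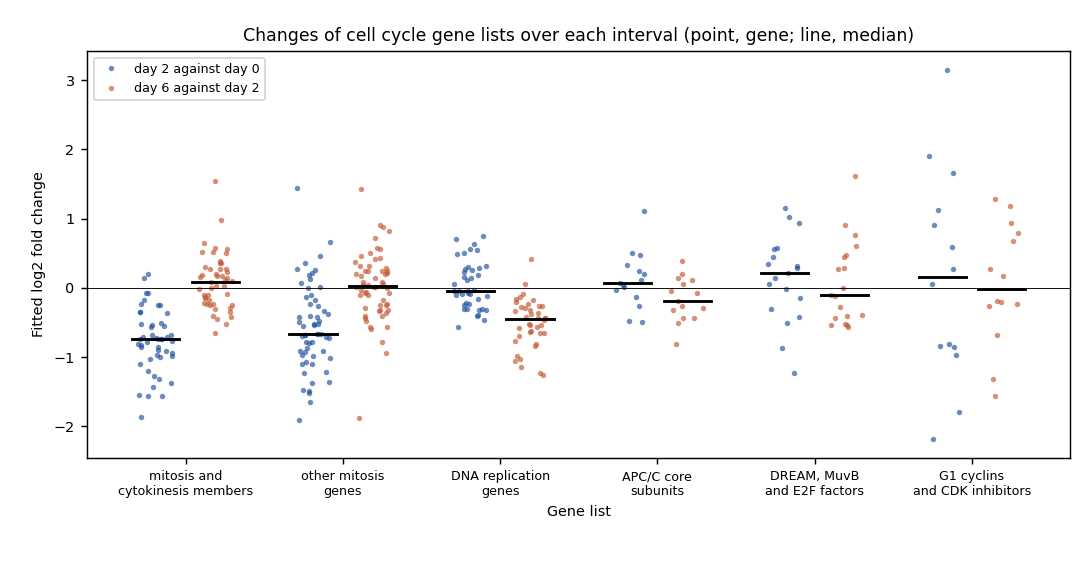
Fitted log2 fold change of each gene in 6 cell cycle lists, day 2 against day 0 (blue) and day 6 against day 2 (orange); black lines are list medians. The members and the other mitosis genes have medians of -0.74 and -0.67 on day 2, and the DNA replication genes a median of -0.45 from day 2 to day 6.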

How the data were processed

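RNA-seq (TruSeq Stranded Total RNA) was analysed in 36 libraries. The authors aligned reads with STAR 2.7.0d and counted read pairs per gene with featureCounts 1.6.2 (GENCODE M21, GRCm38), without strand, without multi-mapping reads and without pairs in several genes. Pairs in exons shared with a neighbour are thus lost from overlapping members. The deposited values are raw counts, used as given.

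Groups came from the sample labels. Genes passing filterByExpr (16723) were normalised by TMM and fitted in R 4.3.3 with edgeR 4.0.16 (quasi-likelihood, Benjamini-Hochberg adjusted p under 0.05). Genotype and day plus clone were fitted for days and genotypes, and 12 groups for clone differences. The standard error was the fold change over the root of F. On simulated data the fit was tested on known changes. Alternatives were the replicate block, other designs, DESeq2 1.42.0, other scalings and filters, each clone alone, and replicates left out. Same-numbered RxraWT and RxraSA libraries of a clone and day deviated together in all 18 pairs (r 0.176 to 0.930 over 9381 genes). The replicate numbers were therefore taken to pair these libraries. The replicate block also takes the offset of a replicate number as equal on all days, which did not hold for all members. For Cenpf in clone 48, the log2 difference of replicate 1 from the others was -0.09, 3.05 and -1.14 on days 0, 2 and 6. Replicates differed beyond counting noise (chi-square per degree of freedom 12.02 to 188 in 36 pairs), so the spread between replicates rather than counting set the precision. Members held 70098 to 202945 counts per library.

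The members, the lists and the tests were chosen with earlier results of these data known. Full values are given for 28 members listed by name, and for members with the largest and smallest changes or smallest p in each comparison. A further gene of the DNA replication list is not reported here.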

Additional observations from a re-analysis of the deposited data

Results flagged for a closer look

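The change from day 0 to day 2 differed between clones, by a test of the difference itself in edgeR, for 2 of 48 members. That is no larger a share than the 6.84% of all tested genes. The value for Cdc20 was -0.542 on the log2 scale (clone 66 minus clone 48, adjusted p = 0.0200), and that for Racgap1 was -0.41 (adjusted p = 0.0295). In both genes all day 2 libraries of clone 66 lay below those of clone 48, while on day 0 the clones overlapped. Clone and library pool cannot be told apart. Neither call was kept in every alternative (0 of 2): the count was 0 with no filter and 0 to 10 when single replicates were left out. Groups of 3 libraries were not searched for outlying libraries.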

How the results depend on the processing

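Over all alternatives, no direction of a called value turned, and 416 of the 456 recomputed summary values stayed within the replicate spread or within 1.5 times the main count. Of the called members, 33 of 42 kept their call from day 0 to day 2 in every alternative run, 33 of 43 from day 0 to day 6, 8 of 25 from day 2 to day 6, 7 of 9, 16 of 24 and 4 of 12 between clones on days 0, 2 and 6, and none (0 of 2) of those that differed between clones in their change. The replicate block raised the members whose change differed between clones to 6 (day 2 against day 0) and 4 (day 6 against day 2). It added 6 calls from day 2 to day 6, 3 from day 0 to day 6 and 2 from day 0 to day 2, and changed no other call. Its pairing was checked within each clone and day, as given with the processing, and not across days. Its assumption of an equal offset on all days did not hold for all members. Scaling by library size alone gave medians of -1.0 (day 2) and -0.84 (day 6) against day 0, with all genes at -0.27 and -0.22, 6 members lower from day 2 to day 6, and 0 (day 2) and 1 (day 6) higher in clone 66. GC correction gave 1 member higher on day 2, and 2 with the block; with it 2 were higher in clone 66 on day 2, and with the block 9 and 6 members changed differently between clones. DESeq2, no filter and a filter of 1 CPM in 6 libraries each gave 2 higher in clone 66 on day 2, and no filter left 0 differing between clones. Clone 48 alone gave 7 higher and 5 lower from day 2 to day 6. Without the day 2 replicate 1 libraries 6 fell in that interval, 6 were higher in clone 66 on day 2, and 8 and 7 changed differently between clones. Leaving out each replicate gave 6 to 11 lower from day 2 to day 6, 5 to 13 lower in clone 66 on day 0, 0 to 8 higher on day 2, 0 to 2 higher and 5 to 21 lower on day 6, and 0 to 10 and 0 to 7 members changing differently between clones. The causes were not tested. The GC correction, the block with it and the setting without the day 2 libraries of replicate 1 were chosen after seeing the data.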
